A study of Mus musculus with 46 samples.

Results

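The comparison set 12 mouse cell lines that carry a p53 knockdown vector against 5 pluripotent lines that carry none. The lines were chosen by title, and they gave 34 of the 46 arrays and 17 of the 23 lines of the study, with 2 cultures of each line. The 12 lines are multipotent germline stem cells (mGS) made from germline stem (GS) cells, which are spermatogonial stem cells grown in culture. They came by 4 lentiviral routes of 3 lines each: knockdown of p53 and Dnmt1 (Dnmt mGS), knockdown of p53 and Dmrt1 (Dmrt mGS), Sox2 with knockdown of p53 (Sox2 mGS), and Oct4 with knockdown of p53 (Oct4 mGS). The 5 reference lines were mGS 1 and 2, which arose spontaneously in GS cultures, and iPS 1, 2 and 5, for which retroviruses had delivered c-myc, Klf4, Sox2 and Oct4. All 17 lines had the DBA/2 background with a GFP transgene and were grown on mouse embryo fibroblasts with serum and LIF, and RNA was taken after feeder cells were depleted on gelatin. Every line with the p53 vector also carried a second change and had been infected with lentivirus, so an effect of p53 and an effect of these cannot be told apart. Origin from GS cells was shared with mGS 1 and 2 but not with the iPS lines.

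p53 is a transcription factor that is held at a low level by the ubiquitin ligase Mdm2 and its relative Mdm4, and is released by DNA damage and other stress. It then binds response elements at target genes whose products stop the cell cycle, start apoptosis, repair DNA or shift metabolism. Loss of p53 makes reprogramming of somatic cells easier and favours the appearance of mGS cells in GS cultures. Trp53, which encodes p53, was not analysed here, so the knockdown was read only through other genes.

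Levels are linear array intensities, averaged over the 2 cultures of a line on the log2 scale. Differences are log2 of the p53 knockdown lines, with the 4 routes weighted equally, over the 5 reference lines, ± the standard error of limma, a linear model fitted over 19938 genes, with n = 12 and 5 lines. A gene rose or fell if its adjusted p (Benjamini-Hochberg over all genes) was under 0.05. The background level, 161, was the 95th percentile of the gene means of 1015 olfactory receptor genes, and where a group mean lies under it, the fold is a lower bound, the other mean divided by 161. Array medians lay between 215.4 and 242.5, apart from 1 culture of Oct4 mGS 1 at 264.8. Pou5f1 (Oct4), the pluripotency factor, read 4227 to 5563 in the 12 lines, 4539 to 5258 in the 5 reference lines and 365 to 1000 in GS cells, and over all 31 naive pluripotency genes the geometric mean was 836 to 2248 in the 12 lines and 1785 to 2380 in the reference lines.

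Levels of the genes knocked down or added in the routes did not all follow the route names. Dnmt1, the maintenance DNA methyltransferase, was low in Dnmt mGS 1 (620) and Dnmt mGS 3 (647), but the line labelled Dnmt mGS 2 read 2752, against 1999 to 2149 in the reference lines. The line labelled Dnmt mGS 2 was nearest to Dmrt mGS 1: over 13002 genes above background their log2 line means differed with an SD of 0.20. The 2 single cultures of each of these lines differed by 0.19, but means of 2 cultures vary less, so the measures are unlike. Some pairs of 1 route were as close, such as Dmrt mGS 2 and 3 (0.16) and Oct4 mGS 1 and 2 (0.19). Dmrt mGS 1 lay 0.63 from the nearest line of its own route. Sox2 read 1253 to 1303 in the 3 Sox2 mGS lines, under the 3837 to 4627 of the reference lines. Low Sox2 was not particular to that route: it read 2289 in Oct4 mGS 1 and 1689 in Oct4 mGS 2, but 4095 in Oct4 mGS 3. Pou5f1 read 4649 to 5248 in the Oct4 mGS lines, inside the 4539 to 5258 of the reference lines. Whether the probe set reads the Sox2 of the vector was not tested. The 3 Dmrt mGS lines had 191, 413 and 554 of Dmrt1, a germ cell factor, against 230 to 572 in the reference lines, which had already lost the 3379 to 4220 of GS cells. With the line labelled Dnmt mGS 2 and Dmrt mGS 1 both left out, an alternative added after the data were seen, 3975 genes were called in the main comparison instead of 4183, and 19 p53 targets (18 lower) instead of 24.

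The p53 response element is a pair of 10-base sites that p53 tetramers bind, and it was looked for in the RefSeq promoters (GRCm38.p6) from 250 bases before to 50 bases after each gene start. A match had at most 2 bases off the consensus in all, none of them in the central C and G of either site, and at most 1 base between the sites. The element reads alike on both strands. It was found in 128 of 15614 measured genes with a promoter (0.82%), in 6 of the 54 p53 targets with one (11.1%), and in 4 of the 19 that fell. All 6 are shown with 20 bases on each side, since they are where these promoters hold the binding sequence. Capitals mark the match, and mm9, the assembly of the submitters' processing notes, was not used for these positions. Gtse1 has a second match that overlaps the first, runs into the lower-case bases after it and is not capitalised.
Ckap2 (chr8:22185983-22186042, minus strand): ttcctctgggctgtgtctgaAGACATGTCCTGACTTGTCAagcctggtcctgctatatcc
Rps27l (chr9:66946276-66946335, plus strand): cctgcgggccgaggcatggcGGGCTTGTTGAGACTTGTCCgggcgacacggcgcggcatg
Zfp365 (chr10:67912686-67912745, minus strand): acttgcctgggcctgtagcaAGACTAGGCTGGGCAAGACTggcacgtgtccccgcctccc
Gtse1 (chr15:85859925-85859984, plus strand): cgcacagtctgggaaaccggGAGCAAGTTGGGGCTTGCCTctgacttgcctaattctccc
Ccng1 (chr11:40755442-40755501, minus strand): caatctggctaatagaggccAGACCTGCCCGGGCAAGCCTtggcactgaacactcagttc
Cd80 (chr16:38458802-38458861, plus strand): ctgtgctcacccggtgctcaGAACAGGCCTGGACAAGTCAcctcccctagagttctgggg
Ckap2, a spindle protein, Rps27l, a ribosomal protein relative, Zfp365, a zinc finger protein, and Gtse1, which binds p53 in G2 phase, fell in the p53 knockdown lines. Ccng1 (cyclin G1) and Cd80, a ligand of T cells, did not pass.

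Genes that p53 activates were on the whole lower in the p53 knockdown lines. Of 65 measured targets in 3 lists, 22 fell, 2 rose and 41 did not pass, and 51 had a lower sign. Their median difference was −0.27, against 0.08 over all genes tested. Among all 19938 genes, 1357 fell (6.81%) and 2826 rose (14.2%). The embryonic stem (ES) lines, outside the comparison and not among the p53 knockdown lines, also had lower targets. Their median difference from the reference lines over the 65 targets was −0.29 in ES R1, −0.13 in ES B6-6 and −0.19 in ES BRC1. Over all genes it was −0.03 to 0.07. By knockdown line the target median ran from −0.64 (Dnmt mGS 1) to −0.06 (Oct4 mGS 1). Whether the lower targets are particular to lines with the p53 vector was not tested. In 10 targets (Perp, Plk2, Gadd45a, Psrc1, Lpin1, Slc19a2, Wrap53, Siva1, Ckap2 and Mgmt) every p53 knockdown line lay below every reference line, which was so for 227 of all genes (1.14%), and in 0 targets the reverse held. The lists were chosen with earlier results of these data known, and the members named beyond those with the largest differences were picked after their values were seen.

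Among 15 genes of arrest and feedback, 7 fell and 0 rose. Plk2, a polo-like kinase, read 1389, 1405, 1576, 1719 and 1932 in the reference lines and 201 to 1334 (median 826) in the 12 lines, and fell by 1.41 ± 0.33 (limma adjusted p = 0.00806). All 12 lines were under the reference range, with Sox2 mGS 3 just below it and Dnmt mGS 1, Dmrt mGS 1 and the line labelled Dnmt mGS 2 the lowest. Sfn (14-3-3 sigma), which holds cells in G2, read 1690, 1745, 2681, 2855 and 3649 in the reference lines and 544 to 1809 (median 956) in the 12, and fell by 1.31 ± 0.22 (limma adjusted p = 0.0013). Only Dnmt mGS 1, at 1809, reached into the reference range of Sfn. Gadd45a, a stress-response protein of arrest and repair, read 790 to 1146 in the reference lines and 209 to 689 (median 425) in the 12, with no overlap, and fell by 1.21 ± 0.24 (limma adjusted p = 0.00321). Psrc1, a microtubule regulator, fell by 0.69 ± 0.23 (limma adjusted p = 0.0421), a call lost when any of the 5 reference lines was left out, and without several of the knockdown lines. The others that fell were Cdc42bpg, Trp53inp1 and Gtse1, by 0.48, 0.41 and 0.35.

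Mdm2, Ccng1 and Cdkn1a were less clear. Mdm2 read 1924, 2117, 2391, 2408 and 2533 in the reference lines and 991 to 2718 (median 1637) in the 12 lines, a difference of −0.48 ± 0.17 that did not pass (limma adjusted p = 0.0502). It was −0.80 in Dnmt mGS, −0.70 in Dmrt mGS and −0.51 in Oct4 mGS, but 0.11 in Sox2 mGS, whose 3 lines lay inside or above the reference range. Ccng1 read 3971 to 5100 in the reference lines and 2004 to 6751 in the 12, and its difference was −0.07 ± 0.20 (limma adjusted p = 0.835). Its 3 Sox2 mGS lines (5887 to 6751) were above every reference line, and Dnmt mGS 1, Dmrt mGS 1 and the line labelled Dnmt mGS 2 (2004 to 2897) were below. Cdkn1a (p21), the best known arrest gene of p53, is read by a probe set that also carries the symbol 4930567H12Rik. That probe set read 2026 to 2368 in the reference lines and 1784 to 4068 in the 12 lines, a log2 difference of 0.30 given with no test, and 9 of the 12 lines were above the reference range.

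**Figure D1:**
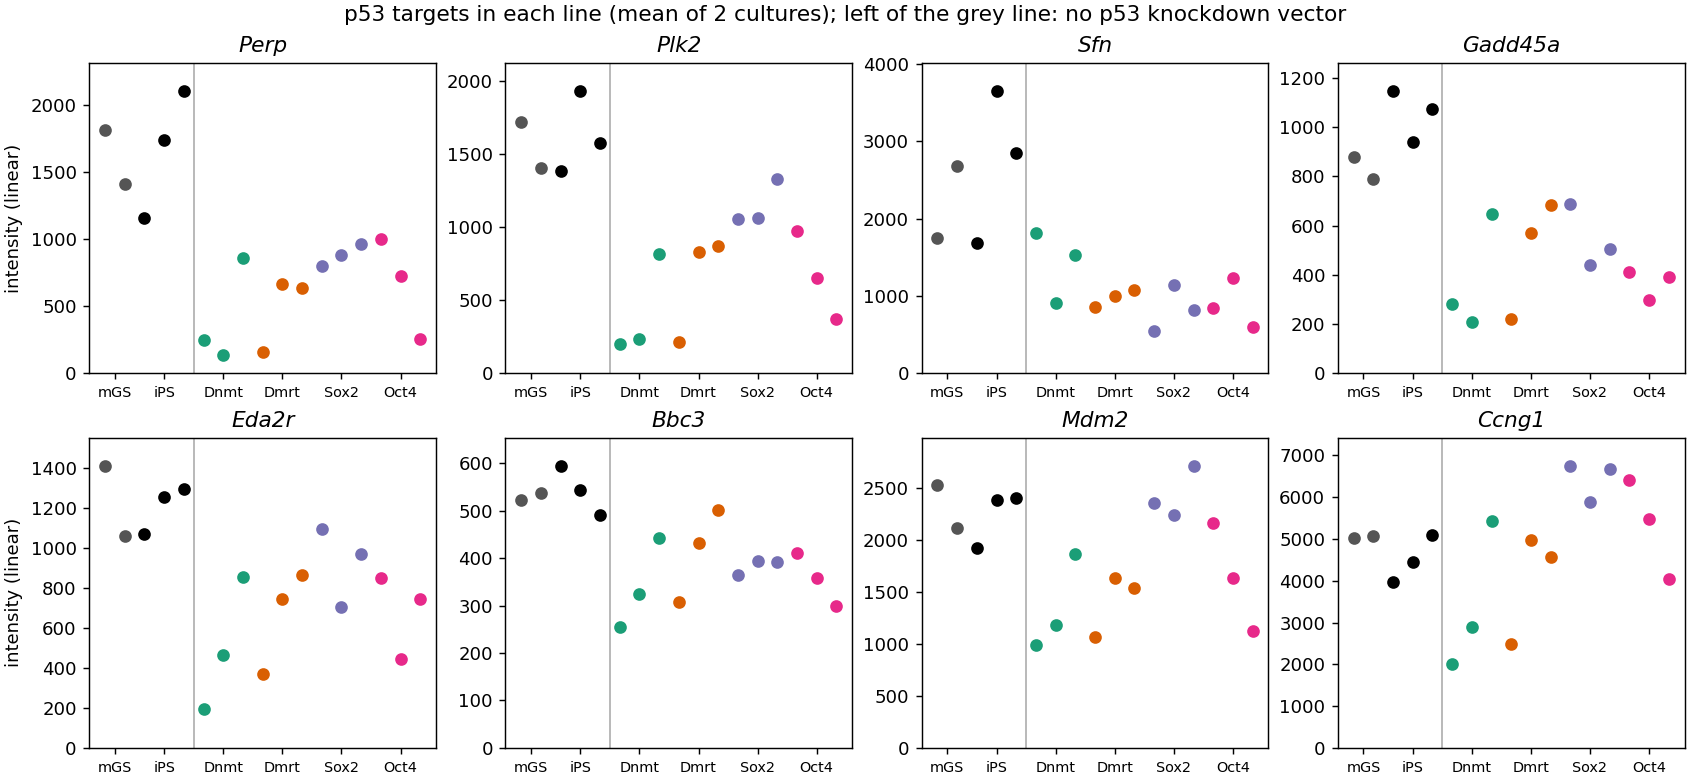
Intensity (linear, from 0) of 8 p53 targets in 17 lines, each point the mean of 2 cultures of a line, with reference lines left of the grey line and the 4 routes right of it. Perp, Plk2 and Gadd45a had no knockdown line in the reference range, while Ccng1 ran from 2004 to 6751 in the knockdown lines, around the 3971 to 5100 of the reference lines.

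Of 18 targets that act in apoptosis, 8 fell and 1 rose. Perp, a membrane protein needed for p53-driven death, read 1162, 1414, 1745, 1818 and 2106 in the reference lines and 136 to 1006 (median 695) in the 12, and fell by 1.69 ± 0.39 (limma adjusted p = 0.00712). No line overlapped. The 3 GS lines, the cells of origin, read 98.6 to 122, under the background level. Eda2r, a receptor of the TNF family, read 1061 to 1411 in the reference lines and 195 to 1094 (median 745) in the 12, and fell by 0.94 ± 0.27 (limma adjusted p = 0.0225). Sox2 mGS 1, at 1094, was the only line inside its reference range. Bbc3 (Puma), a BH3-only activator of apoptosis, read 491, 523, 536, 545 and 594 in the reference lines and 255 to 501 (median 378) in the 12, and fell by 0.55 ± 0.16 (limma adjusted p = 0.0266). Eda2r lost its call without iPS 2, iPS 5 or mGS 1, and Bbc3 without iPS 1, iPS 2, the Sox2 mGS route or the Oct4 mGS route. Siva1, a proapoptotic protein, fell by 0.51 ± 0.08 (limma adjusted p = 0.000871), with the 12 lines at 565 to 831 and the reference lines at 874 to 1025. Ckap2, Aen, Apaf1 and Pidd1 fell by 0.51, 0.45, 0.40 and 0.33. Fas, a death receptor, rose, from a mean under background in the reference lines to at least 1.16-fold higher.

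Of 32 targets in repair, metabolism and other tasks, 7 fell and 1 rose. Zfp365 read 310, 419, 449, 493 and 506 in the reference lines and 66.0 to 412 (median 278) in the 12, and fell by 1.09 ± 0.34 (limma adjusted p = 0.0313), a call lost without iPS 2, iPS 5, mGS 1 or mGS 2. Slc19a2, a thiamine transporter, read 1167 to 1591 in the reference lines and 641 to 1111 (median 918) in the 12, without overlap, and fell by 0.63 ± 0.12 (limma adjusted p = 0.00204). Lpin1, a phosphatidate phosphatase, fell by 0.69 ± 0.17 (limma adjusted p = 0.0127), and Ddit4l, an inhibitor of mTOR signalling, by 0.62 ± 0.19 (limma adjusted p = 0.0258), a call lost without iPS 2, iPS 5 or mGS 1. Wrap53, a telomerase assembly protein, Mgmt, which removes alkyl groups from DNA, and Rps27l fell by 0.55, 0.41 and 0.27. Prkab1, a subunit of the energy sensor AMPK, rose by 0.29.

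**Figure D2:**
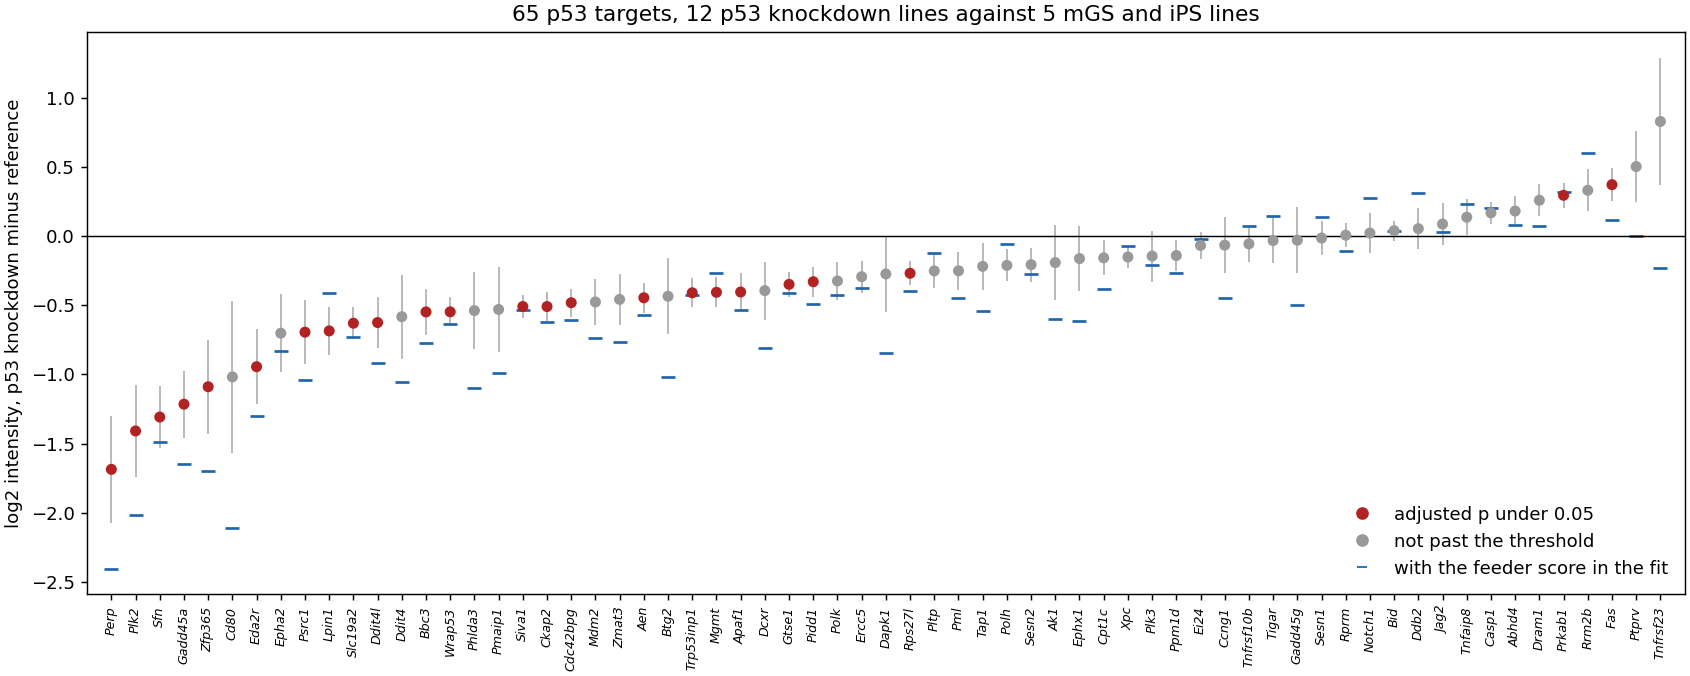
Log2 difference of 65 p53 targets between 12 p53 knockdown and 5 reference lines, with bars of 1 standard error (limma). Red points passed adjusted p of 0.05 (22 below 0 and 2 above), grey points did not, and blue dashes are the same differences with the feeder score of each line in the fit, which lie lower for most targets.

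The calls changed with the reference lines used and with the estimate of the spread. Against iPS alone, 14 of the 65 targets fell and 0 rose, where 932 of all genes fell (4.67%) and 8.81% rose. Against the 2 spontaneous mGS lines alone, 0 passed in limma, 22 were at an unadjusted p under 0.05, and 183 of all genes passed (0.918%, with 0.497% lower), while the median difference of the 65 was −0.29 there and −0.31 against iPS. Between the spontaneous mGS and the iPS lines, 0 of 19938 genes passed in limma, with 225 at an unadjusted p under 0.05. With 2 against 3 lines this does not show that they are alike. Mid1, for example, read 3655 to 4143 in the iPS lines and 503 and 369 in mGS 1 and 2. With the group taken as a random block, 257 genes and 1 target (Siva1) passed. This fit gives lines of a group 1 shared correlation (0.27) over all genes. The lines still entered singly, so it is no test with the route as the unit. Leaving out iPS 2 gave 14 targets and leaving out iPS 5 gave 15, all of them lower, and the count was 16 without mGS 1, 19 without mGS 2 and 19 without iPS 1.

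Each route was also set against the 5 reference lines, which are thus shared controls. In Dnmt mGS 19 targets fell and 3 rose, where 4.17% of all genes fell and 6.87% rose. In Dmrt mGS 4 fell and 0 rose (0.953% of all genes fell and 0.737% rose). In Sox2 mGS 12 fell and 6 rose (10.5% of all genes fell and 16.2% rose, 26.6% in all), and in Oct4 mGS 13 fell and 0 rose (4.27% of all genes fell and 12.5% rose). Slc19a2 and Wrap53 passed in all 4 routes, and Sfn passed in Dmrt, Sox2 and Oct4 mGS. The routes differed among themselves, by limma's F-test, in 11 of the 65 targets, a share no higher than that of all genes (3971, or 19.9%), and none of the 11 was among the targets that fell in the main comparison. Btg2, an antiproliferative gene, was one of the 11 (limma adjusted p = 0.0165): its difference was −1.27 in Dnmt mGS, −0.90 in Dmrt mGS, −0.20 in Oct4 mGS and 0.63 in Sox2 mGS.

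The knockdown lines differed in their fibroblast RNA, and the lines with least of it were lowest for part of the p53 targets. The feeder score, the geometric mean of 23 feeder and fibroblast genes, all of them above background, ran from 293 to 2501 in the 12 lines and from 387 to 1219 in the reference lines. Of these 23 genes 9 rose and 0 fell, with a median difference of 1.17, where 14.2% of all genes rose. By route 15 rose in Sox2 mGS and 6 in Oct4 mGS, where 16.2% and 12.5% of all genes rose. In Dnmt mGS and in Dmrt mGS 0 passed. Against iPS alone 8 rose, and against mGS alone 0 passed. Lox (lysyl oxidase) and Dcn (decorin) rose most, by 1.94 ± 0.44 (limma adjusted p = 0.00704) and 1.85 ± 0.44 (limma adjusted p = 0.00906, lost for Dcn without the Sox2 mGS route). In bulk RNA, more feeder cells and more feeder RNA per cell cannot be told apart. The 4 knockdown lines with the lowest scores were the line labelled Dnmt mGS 2 (293), Dmrt mGS 1 (299), Dnmt mGS 1 (546) and Oct4 mGS 3 (885). In 23 of the 65 targets, Perp, Plk2, Mdm2, Ccng1, Bbc3, Btg2, Phlda3 and Pmaip1 among them, these 4 were also the 4 lowest of the 12 lines, as in 7.49% of all genes. Mdm2 read 991 to 1189 in them and 1545 to 2718 in the other 8, and Perp read 136 to 258 against 635 to 1006. The 2 mGS lines did not show this over the 65 targets: mGS 1 (score 397) and mGS 2 (1219) had medians of 0.02 and 0.00 from the other reference lines. The iPS lines followed the order of their scores, with iPS 1 (387) at −0.15, iPS 2 (483) at 0.01 and iPS 5 (560) at 0.12. Oct4 mGS 2, with a score of 1580, was at −0.42, near the −0.43 of Oct4 mGS 3. The part of feeder RNA in the differences was not tested beyond the fit that follows.

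**Figure D3:**
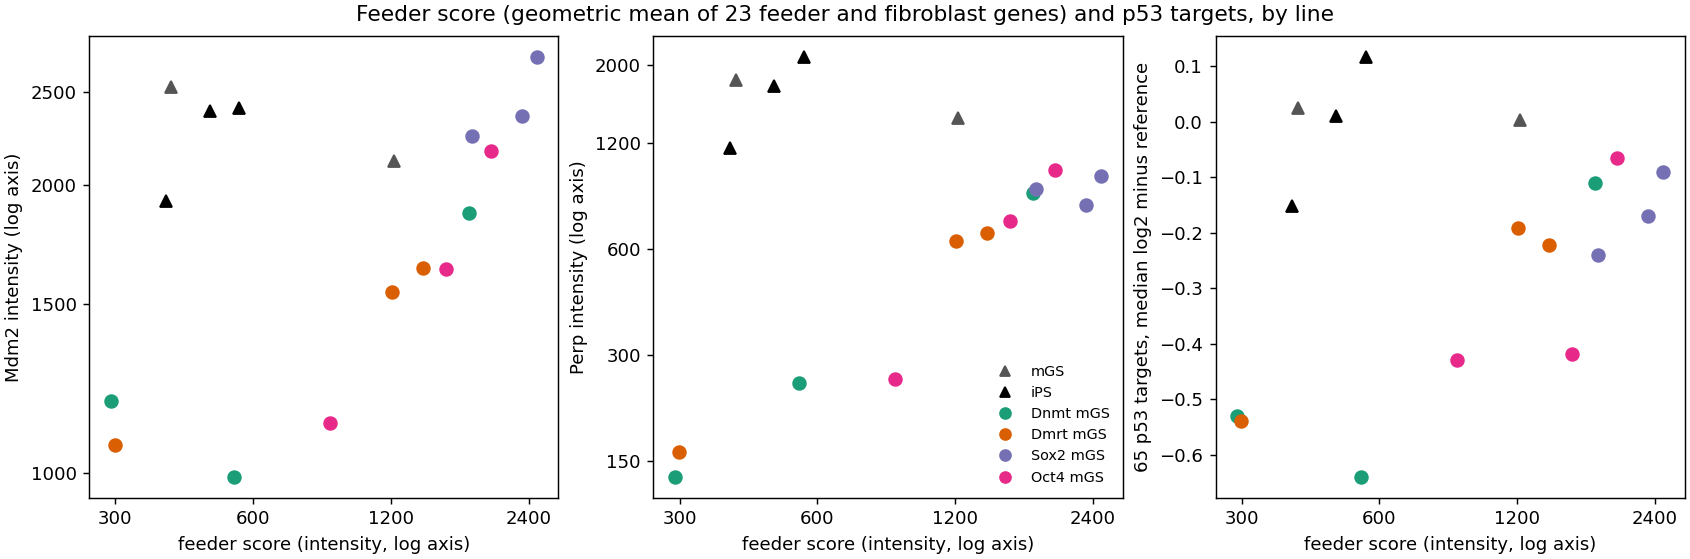
Feeder score of each line (x, log axis, intensity) against the intensity of Mdm2 and of Perp (y, log axes) and the median log2 difference of 65 p53 targets from the reference lines. The 4 knockdown lines (circles) of lowest score are the lowest for Mdm2 and Perp, and reference lines (triangles) with scores of 387 to 1219 lie above the knockdown lines of like score for Mdm2 and Perp.

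With the feeder score of each line in the fit, the p53 targets differed more. Then 37 targets fell and 2 rose, with a median of −0.45, against 1666 of all genes that fell (8.36%) and a median of 0.09. The score did not level the feeder genes themselves. Of the 23 behind it, 7 still rose and 5 fell, where 18.2% of all genes rose. Its slope was fitted over all lines of the study, GS and ES included. Of the 24 targets called before, 21 were called again, and 18 came in, among them Mdm2 (−0.73 ± 0.15), Btg2 (−1.02 ± 0.15), Phlda3, an inhibitor of Akt (−1.10 ± 0.18), Zmat3, an RNA-binding protein (−0.77 ± 0.15), Pmaip1 (Noxa), a BH3-only protein (−0.99 ± 0.28), and Cd80 (−2.11 ± 0.37). Ccng1 was among them too, at −0.45 ± 0.15. Fas, Lpin1 and Mgmt did not pass. Against the spontaneous mGS lines alone, 14 targets fell in this fit, where 1.55% of all genes fell, 1.91% rose and 3.46% passed, with Perp at −2.16, Plk2 at −1.78 and Gadd45a at −1.31. Against iPS alone 33 fell and 1 rose, where 6.31% of all genes fell. Over all the alternatives tried, the limma adjusted p of Mdm2 lay between 0.0007 and 0.793, and its difference stayed negative.

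The regulators of p53 changed in both directions, and their direction depended on the gene. Of 22, 4 fell and 3 rose, where 6.81% of all genes fell and 14.2% rose. The share that rose was thus no larger than among all genes. Mdm4, which blocks the activation domain of p53, read 1538, 1853, 1939, 1999 and 2034 in the reference lines and 673 to 1748 (median 1063) in the 12, and fell by 0.84 ± 0.13 (limma adjusted p = 0.000758). Only Dnmt mGS 3, at 1748, was inside the reference range. Sirt1, a deacetylase of p53, read 1628 to 2780 in the reference lines and 1269 to 1625 (median 1432) in the 12, without overlap, and fell by 0.65 ± 0.11 (limma adjusted p = 0.00138). Its differences were −0.58 to −0.68 in the 4 routes. Kat5 (Tip60), an acetyltransferase, fell by 0.44 ± 0.06 (limma adjusted p = 0.000427), and Rpl5, a ribosomal protein that inhibits Mdm2, by 0.14. Hipk2, a kinase of p53, Crebbp, a coactivator, and Trp53bp1, a damage mediator, rose by 0.46, 0.35 and 0.21. With each array centred on its median, 7 of the 22 fell and 1 rose, where 2399 of all 19938 genes fell and 791 rose.

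Beyond the p53 lists, genes were ranked by difference among those whose knockdown and reference lines did not overlap, and the 10 lowest and 10 highest of these are described, so that their lack of overlap is the rule and no finding. Of all genes, 324 (1.63%) had every knockdown line above every reference line. Among these 10 lowest, Xrcc5 (Ku80), which binds DNA ends in end joining, had the smallest p: it read 2251, 2281, 2470, 2489 and 2612 in the reference lines and 527 to 1144 (median 831) in the 12, a 2.97-fold difference (−1.57 ± 0.13, limma adjusted p = 3.63e-06). The 4 routes were close, at −1.41 to −1.72, and GS cells read 1139 to 1311, near the highest knockdown line and far under the reference lines. Xrcc5 was also lower against the mGS lines alone (−1.58) and against iPS alone (−1.57), both past the threshold. It was the only one of 22 DNA repair and damage genes that passed, a smaller share than the 21% of all genes.

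Sgf29, a histone reader of the SAGA complex, read 752, 796, 811, 811 and 812 in the reference lines and 196 to 481 (median 339) in the 12, and fell by 1.26 ± 0.15 (limma adjusted p = 8.63e-05). GS cells read 763 to 869, so the knockdown lines were below both. H2ac4, a histone H2A gene whose copies are near-identical and may share probes, read 2792 to 3956 in the reference lines and 979 to 1913 in the 12, and fell by 1.38 ± 0.14 (limma adjusted p = 2.91e-05). Zfp750, an epidermal zinc finger protein, fell to at least 2.30-fold lower, and Aard, a small testis protein, to at least 3.28-fold lower, with all 12 Aard values (69.8 to 163) under the 252 to 965 of the reference lines. AU015836 read 101 to 386 in the 12 lines and 430 to 1185 in the reference lines, and fell by 2.08 ± 0.25 (limma adjusted p = 0.000102).

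The 10 lowest of the genes without overlap include a pair of microRNA genes, from clusters tied to proliferation. Their mature RNAs (RefSeq, GRCm38.p6) are shown with the seed, bases 2 to 8, in capitals, and the seeds differ. The array read the genes, and mature microRNAs were not measured separately.
miR-15b-5p (chr3:69009775-69009796): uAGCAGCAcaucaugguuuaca
miR-18a-5p (chr14:115043867-115043889): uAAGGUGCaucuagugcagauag
Mir18, in the miR-17-92 cluster that Myc drives, read 421, 559, 592, 600 and 604 in the reference lines and 111 to 370 (median 250) in the 12, and fell by 1.33 ± 0.21 (limma adjusted p = 0.000658). Mir15b read 159 to 234 in the reference lines and 51.6 to 101 in the 12, under background, and was at least 1.21-fold lower. Of 300 microRNA genes, 33 fell and 28 rose, a share of calls near that of all genes (21%).

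Among the 10 highest of the genes without overlap, Serpina3n, a serine protease inhibitor, read 77.6 to 140 in the reference lines, under background, and 215 to 615 (median 385) in the 12, at least 2.29-fold higher (limma adjusted p = 0.00357). Sting1, the adaptor of cytosolic DNA sensing, was at least 2.38-fold higher, at 196 to 596 against 84.7 to 184 (limma adjusted p = 0.00116). Both were high in GS cells, at 1039 to 1131 and 392 to 715. Mdfic, a transcription modulator, read 217, 282, 314, 386 and 467 in the reference lines and 562 to 1509 (median 849) in the 12, and rose by 1.45 ± 0.31 (limma adjusted p = 0.00485). Meioc, a meiosis gene, rose by 1.39 ± 0.26 (limma adjusted p = 0.00207) and Reck, a membrane inhibitor of metalloproteinases, by 1.05 ± 0.13 (limma adjusted p = 0.000148). Rtn4rl1 and Pip4k2a rose by 1.08 and 1.05. Chl1, Fam120c and Nckap1l, under background in the reference lines, were at least 1.03-, 1.19- and 1.30-fold higher. Nckap1l lost its call without the Dnmt mGS route, and read 347 to 824 in Dmrt mGS 1 and the 3 lines labelled Dnmt mGS, and 117 to 221 in the other 8.

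**Figure D4:**
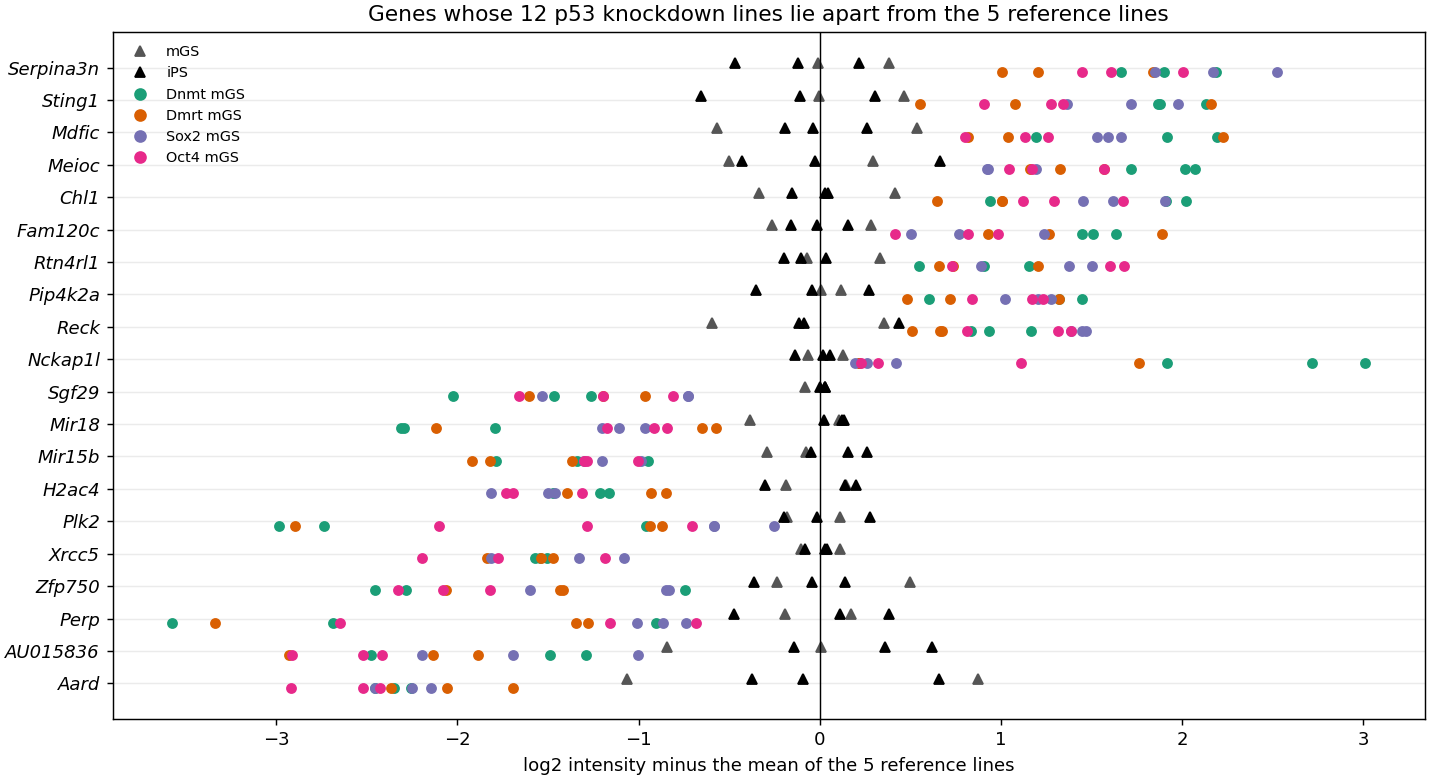
Log2 intensity minus the mean of the 5 reference lines for the 20 genes with the largest differences among those whose lines do not overlap, with triangles for reference and circles for knockdown lines. Xrcc5 and Sgf29 show narrow reference values and all 12 knockdown lines apart, while Perp and Plk2 spread over more than 2 log2 units within the knockdown lines.

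Other gene groups were read for the state of the cells. Of 31 naive pluripotency genes, 6 fell and 0 rose, with a median of −0.41, where 6.81% of all genes fell and 14.2% rose. The fall lay unevenly over the routes, which differed in 13 of the 31, beside 19.9% of all genes. In Sox2 mGS, whose feeder scores were 1804 to 2501, 16 fell and 1 rose (median −0.97). There 10.5% of all genes fell and 16.2% rose. In Oct4 mGS 4 fell, in Dnmt mGS 1 (median 0.01) and in Dmrt mGS 0, beside 4.27%, 4.17% and 0.953% of all genes. Against mGS alone 0 passed in limma, with 3 at an unadjusted p under 0.05. Klf4 read 1376 to 2689 in the reference lines and 450 to 2182 in the 12, and fell by 1.04 ± 0.29 (limma adjusted p = 0.02). Klf2 fell by 0.83 ± 0.25 (limma adjusted p = 0.0278). Both are transcription factors of the naive network, and neither call held without iPS 1, iPS 2 or the Sox2 mGS route, nor that of Klf2 without mGS 1. The iPS lines had been made with retroviral Klf4. Of 34 germline genes 4 rose and 2 fell, no larger a share than the 21% of all genes, but the routes differed in 19 of them. In Dnmt mGS 14 rose and 2 fell, where 6.87% of all genes rose and 4.17% fell. In Oct4 mGS 0 rose and 1 fell, where 12.5% of all genes rose and 4.27% fell. In the main comparison Mael, a piRNA factor, rose by 0.87 ± 0.23 (limma adjusted p = 0.0137), and Tdrd12, another, fell by 0.83 ± 0.23 (limma adjusted p = 0.0201). Mael lost its call without the Dnmt mGS route, and Tdrd12 without iPS 1, iPS 5 or the Sox2 mGS route. Of 23 cell cycle genes that p53 represses through p21 and the DREAM complex, 0 rose and 3 fell, Mybl2, Cdc20 and Birc5. Among all genes 14.2% rose and 6.81% fell. Mybl2 fell by 0.66 ± 0.16 (limma adjusted p = 0.00903). Of 19 G1 genes only Rb1, the retinoblastoma gene, passed, and it fell by 0.80 ± 0.18 (limma adjusted p = 0.00716). Of 14 testis somatic markers 0 passed in limma, with 2 at an unadjusted p under 0.05. Both the G1 genes and the testis markers were thus called less often than all genes (21%).

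Gene groups of the embryo changed in both directions, beside 6.81% of all genes that fell and 14.2% that rose. Of 18 primed epiblast and mesendoderm genes, 2 fell and 1 rose: Zic2, a zinc finger factor, rose by 0.96 ± 0.20 (limma adjusted p = 0.00422), and Cer1, a Nodal inhibitor, was at least 1.42-fold lower (limma adjusted p = 0.015), a call lost without mGS 2, where it read 1299. Of 18 primitive endoderm genes 4 fell and 1 rose. Cubn, an endocytic receptor, was at least 1.67-fold lower, and Lama1, a laminin chain, fell by 1.20 ± 0.25 (limma adjusted p = 0.00396). Of 15 trophoblast genes 3 fell and 1 rose, with Tfap2c, which germ cells also use, at 863 in the reference lines and 366 in the 12 (−1.24 ± 0.36, limma adjusted p = 0.0247), lost without iPS 2, iPS 5, mGS 1 or the Oct4 mGS route. Of 13 DNA methylation genes, Dnmt3l, the cofactor of de novo methylation, fell by 0.72 ± 0.19 (limma adjusted p = 0.0144, lost without iPS 1 or the Sox2 mGS route) and Tet3, a dioxygenase of methylcytosine, rose by 0.42 ± 0.08 (limma adjusted p = 0.00202). Of 20 interferon genes 3 rose, and with quantile normalization 0 passed.

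Some genes were named for their difference from the mGS or from the iPS lines, between which no gene passed the test. Mid1, an X-linked ubiquitin ligase, read 3655 to 4143 in the 3 iPS lines, 369 and 503 in the spontaneous mGS lines and 159 to 787 in the 12. Npy, a neuropeptide, was lower than in the spontaneous mGS lines, which read 895 and 2042, at 121 to 822 (−1.90, limma adjusted p = 0.0336), and Usp26, a germ cell deubiquitinase, was higher, at 1069 to 2535 against 409 and 541 (1.94, limma adjusted p = 0.0242). Usp26 was higher against iPS as well (1.90, limma adjusted p = 0.00238), and Npy, at −0.93 there, did not pass (limma adjusted p = 0.0717). Against mGS, Usp26 lost its call without either mGS line or the Oct4 mGS route, and Npy without either mGS line, Sox2 mGS 3 or the Dnmt mGS route. Aspn, a gene of the extracellular matrix, rose against iPS by 2.57, as the feeder genes did, and not so without iPS 1, iPS 2 or the Sox2 mGS route.

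Small nucleolar RNA genes, which guide the modification of ribosomal RNA, were lower as a class. This class was chosen after its values were seen, so the counts are a description. Of 52 genes, 40 fell and 1 rose, with a median of −0.45. Of all genes 6.81% fell and 14.2% rose, with a median of 0.08. The median by line was −0.89 to −0.15 in the 12 lines, −0.11 to 0.08 in the 5 reference lines, −0.95 to −0.73 in GS cells and −0.06 to −0.05 in ES cells. Rnu5g, a spliceosomal RNA gene, read 69.3 to 255 in the 12 lines and 166 to 537 in the reference lines. The class moves with the comparison itself, and its part in the other results was not tested: with its mean in the fit, an alternative added after the data were seen, 0 genes passed in limma (1478 at an unadjusted p under 0.05), and the standard error of the median gene was 2.39 times as large.

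**Figure D5:**
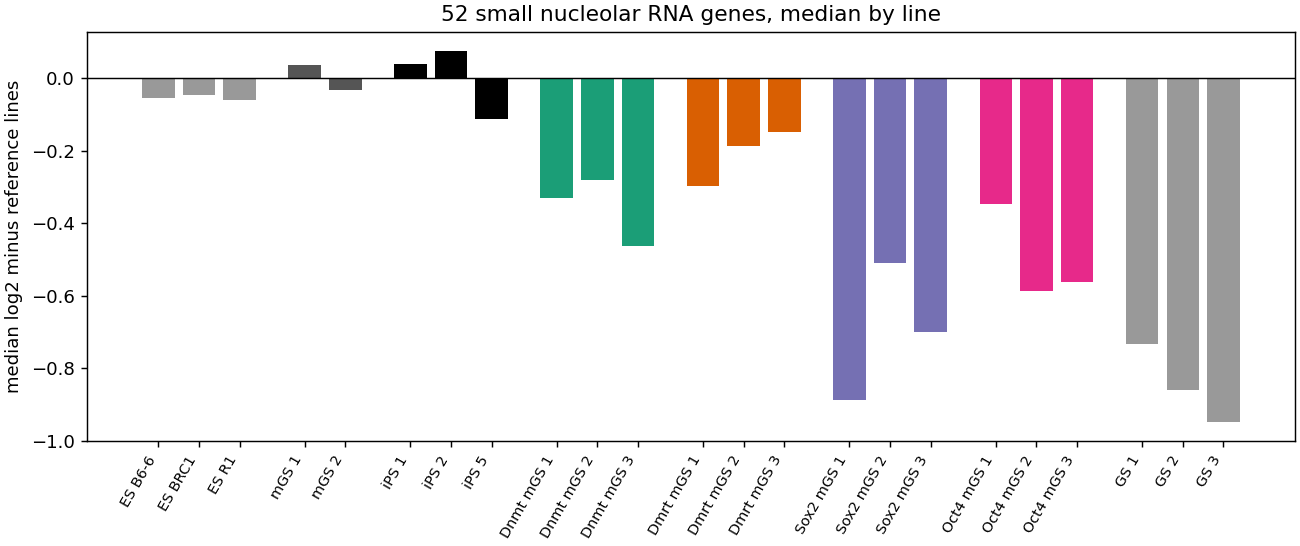
Median log2 difference of 52 small nucleolar RNA genes from the mean of the reference lines, 1 bar per line (a reference line is set against the other 4). All 12 knockdown lines lie below 0, from −0.15 to −0.89, GS lines at −0.73 to −0.95 and ES lines near 0.

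Whether the calls were more often higher or lower depended on the scaling. On the deposited values 2826 genes rose and 1357 fell, so that 67.6% of calls were higher. After quantile normalization 41.0% were higher, and with each array centred on its median 24.8% were. Centring moved the median of all genes from 0.08 to −0.02, and the p53 targets that passed were then 26 lower and 0 higher.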

How the data were processed

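RNA of 46 cultures (23 lines) had been hybridised to whole-transcript arrays. The authors deposited 1 table of linear intensity for 28856 probe sets, with scaling not given in the sources used here. Per the submitters' processing notes the assembly is mm9. Values ran from 16.0 to 27420 and log2 was taken with no offset. The precision is limited by the number of arrays and lines.

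Of the probe sets, 21789 with 1 symbol in the platform annotation were kept, 1621 with several and 5446 outside it were left out, and the brightest of several was taken for 999 genes, giving 19938. The 2 cultures of a line were averaged. All 23 lines in 8 groups entered 1 limma fit (limma 3.58.1, R 4.3.3, lmFit and eBayes, 15 residual and 2.71 prior degrees of freedom), with Benjamini-Hochberg adjustment at 0.05. Nothing in the labels says that lines of a route came from separate infections, so p-values measure only the spread between these lines.

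The comparison, the members, the gene lists and the rule for named genes were chosen with earlier results of these data known. Named were fixed p53 genes, up to 12 more p53 list members past the threshold, and the 10 highest and 10 lowest genes whose lines do not overlap. From each other list came the called members with the largest differences and any largest called member against the direction of most. To these were added up to 5 each way against mGS or iPS alone, and the 6 largest F among routes. Clone numbers did not pair lines: deviations of same-numbered lines correlated at −0.65 to 0.79 (median 0.14), and those of other numbers at a median of −0.10.

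Other settings fitted only the groups compared, took the group or line as a random block (statmod 1.5.0), took arrays as samples, rescaled the values, left out dim genes, used another probe rule or eBayes with a trend, added blocks or the feeder score, and left out lines or routes. On simulated data with 200 of 19938 genes changed, 80.6%, 88.1% and 97.0% of 1.5-, 2- and 4-fold changes were called in the main comparison. The simulated lines were independent, groups shared 1 mean, and a change was the same in all 12 lines. In the data the routes differed in 19.9% of genes and lines of a group were correlated (0.27). The simulated rates therefore do not give the power of this comparison. Python 3.11.15 (pandas 2.3.3, numpy 2.4.6, matplotlib 3.10.9) wrote the tables and drew the figures.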

Additional observations from a re-analysis of the deposited data

Results flagged for a closer look

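In 81 named genes, the 5 reference lines were searched for a line that stands apart on the log2 scale by Dixon's ratio (the gap to the nearest line over the whole range, 0.71 needed), which chance passes in about 1 of 20 groups. It did so in 5 genes. mGS 1 was low for Mir18 (ratio 0.788) and for Rnu5g (0.822), mGS 2 was low for Sgf29 (0.746), iPS 1 was high for Ppp1r9a (0.754), and iPS 5 was high for Dmrt1 (0.76). For Sgf29 the gap is small beside the distance to the knockdown lines, whose highest value was 481 against 752 in mGS 2.

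The 4 routes differed from each other, by limma's F-test over all genes, in 25 of the named genes and in 19.9% of all genes. Of the 25, 6 had been named for having the largest F, and so had the lowest adjusted p-values: Egr1 (4.29e-07), Gm10874 and Rprl2 (both 7.03e-07), AY036118 (3.72e-06), and Egr2 and Gm10785 (both 4.14e-06). Egr1, an immediate-early factor, read 966 to 1821 in the Dnmt and Dmrt mGS lines and 2900 to 4324 in the Sox2 and Oct4 mGS lines, on either side of the 1891 to 2610 of the reference lines. Rprl2, a gene of the RNA component of RNase P, read 1360 to 1710 in the first and 601 to 814 in the second, against 1549 to 1999. Among germ cell genes the routes differed in Slc25a31 (0.000428), Gfra1 (0.00184) and Mael (0.0101). Slc25a31, a germ cell ATP carrier, read 405 to 755 in the 3 lines labelled Dnmt mGS and Dmrt mGS 1 and 97.9 to 206 in the other 8.

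Among genes of the matrix, membrane and secretion the adjusted p was 0.00142 for Nckap1l, 0.00921 for Adamts5, 0.0162 for Npy, 0.0255 for Aspn, 0.032 for Lama1 and 0.0385 for Reck. Among RNA and protein synthesis genes it was 0.00504 for Rpl39l, 0.00525 for Rnu5g and 0.0388 for Mir18. Among regulators it was 0.0169 for Tet3, 0.0243 for Sox2, 0.0433 for Dnmt3l and 0.0474 for Rb1. It was 0.0229 for Oas1a, 0.029 for Pramel19 and 0.0326 for Fam120c.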

How the results depend on the processing

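Counts are given for all genes against the reference lines, against mGS, against iPS and among the routes, and for p53 targets, where the main values were 4183, 183, 2689, 3971 and 24. Fitting only the groups compared as 2 groups gave 2434, 10 and 805. With the group as a random block (correlation 0.27 for the first) they were 257, 0 and 1 (Aard), with 1 p53 target. With 46 arrays as independent samples they were 8960, 3142, 7890 and 10719, with 46 p53 targets, and with the line as a random block 965 against mGS and 6225 among the routes. Centring gave 277 against mGS (45 higher, 232 lower). The split against iPS was 479 higher and 1808 lower on centring, and 763 and 1190 with quantile normalization, against 1757 and 932. The clone number as a replicate block gave 2635 against the reference lines, 1255 against iPS and 15 p53 targets, and the culture number as a replicate block 8889, 3032, 7767 and 10584, with 45 p53 targets. The feeder score gave 690 against mGS, 1422 among the routes and 39 p53 targets. Without the Dnmt mGS route the counts were 280 against mGS and 1056 among routes, without the Dmrt mGS route 338 against mGS, and without the Sox2 mGS route 2140, 73, 921 and 865.

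Leaving out 1 line at a time gave 2097 to 4572, 13 to 313, 494 to 3301 and 1918 to 5242, with 14 to 31 p53 targets. The first was 2492, 2097 and 2630 without iPS 1, 2 and 5, and against iPS it was then 636, 494 and 1135. Against mGS it was 13 and 99 without mGS 1 and 2, 108 without Sox2 mGS 3 and 313 without Oct4 mGS 3. Among routes it was 1997 without Dnmt mGS 1 and 1918 without Sox2 mGS 3.

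Chosen after the data were seen, the small nucleolar RNA score in the fit left 0, 0, 0 and 1245 genes and 0 p53 targets, and with the feeder score too it left 1, 0, 1 (both times Lpl) and 479, with 0 p53 targets. The first then turned Bbc3 to 0.090, Nckap1l to −0.019, Cdc20 to 0.18 and Elf5 to −0.10, and both together turned Cdc20 to 0.039, Elf5 to −0.056 and Igf2r to −0.19, none past the threshold. The cause was not tested beyond the wider standard errors. Without Oct4 mGS 1 and 3 the first count was 3646. Of the 20 genes with the largest differences whose lines do not overlap, 16 kept their call in limma with the group as a random block, and Perp, Plk2, Mir18 and Nckap1l did not.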

Other observations

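Median log2 values by chromosome, after subtracting each line's own median, were close to the reference lines in most knockdown lines. Oct4 mGS 3 had the widest spread of the 12 (SD 0.084 over chromosomes, lowest −0.17 and highest 0.094), and Sox2 mGS 1 was next (SD 0.062, −0.14 to 0.14). The other 10 had SDs of 0.018 to 0.051, and the 5 reference lines of 0.018 to 0.032. ES R1, outside the comparison, had 0.080, with 1 chromosome at 0.26. No chromosome count was measured.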
